A study of Homo sapiens with 18 samples.

Results

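The small RNAs described here are the structured, non-coding RNAs that RNA polymerase III makes, together with the small nuclear RNAs of the spliceosome. They were chosen by name from the table of group means: every row whose name starts with RN7S, with RNY or RNU and a digit, with VTRNA, with RNVU or with SNAR. This gave 56 of 23713 rows. The 22 SNAR rows are near-identical copies and were counted as 1 group by their mean, which leaves 35 RNAs: 34 single rows and SNAR. No row had a name starting with RN7S or RNVU, so the RNAs of the 7SK and signal recognition particles are not analysed here. The small nuclear RNAs U1, U2 and U4 had no row by this naming rule either. U5 and U6 were present only as 3 U5 variants and 20 U6 copies, and the Y RNAs only as RNY4 and RNY5.

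The cells were MOLM-13, an established human line of acute monocytic leukaemia, and their RNA was sequenced. They were given DMSO (the solvent control), IACS-9571 (a ligand of the bromodomains of TRIM24 and BRPF1) or dTRIM24 (a degrader that joins a TRIM24 ligand to a ligand of the VHL ubiquitin ligase) for 4 h or 24 h. The labels name 18 samples, 3 in each of 6 groups, and give no doses. The treatment protocol in the labels names 24 h throughout, but both times stand in the titles and time points, which were followed here. All groups are the same line with no genetic change named. The 7 myeloid and leukaemia markers checked were all present, between 3.55 FPKM and 1057 FPKM. The 6 markers of other cell sources stayed at or under 0.155 FPKM.

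The deposited table holds 1 mean per group in FPKM, a unit that scales fragments by transcript length and, in its plain form, by library size. The column totals lay between 771830 FPKM and 1.06e+06 FPKM. The median of 25 ERCC spike-ins (control RNAs added in known amounts) stayed within 4.17% of its mean over groups. The columns thus agreed on the spike-ins and not on their totals, and the reason was not tested. Single libraries were not analysed here, so the values below carry no replicate error, no test could be run, and how deeply each library was read is unknown. A group mean does not show in how many of its 3 libraries an RNA was found. The labels do not say whether a group's samples were separate cultures. No value is 0: 6066 rows share 1 constant per column, between 0.0914 FPKM and 0.105 FPKM. A value within 10% of that constant is called the floor below.

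RNA polymerase III makes short RNAs that carry no poly(A) tail. Vault RNAs are part of the vault, a large cytoplasmic ribonucleoprotein, and Y RNAs bind the Ro60 protein. Both are transcribed from promoters inside or just before the gene. The small nuclear RNAs form the spliceosome: U1, U2, U4, U5 and U6 act in the major one, while U11, U12, U4atac, U6atac and the shared U5 act in the minor one, which removes a rare class of introns. RNA polymerase II makes most of them, and their Sm site is bound by a ring of Sm proteins. U6 and U6atac are made by RNA polymerase III instead and bind an LSm ring. SNAR RNAs are primate polymerase III transcripts.

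Of the 56 rows, 12 had a transcript of the same name in GENCODE release 29 (GRCh38). It places RNU11 on chromosome 1 (134 bases), RNU12 on 22 (150 bases), RNU4ATAC on 2 (127 bases), RNU6ATAC on 9 (126 bases) and the VTRNA1 genes on 5 (89 to 99 bases). The 4 small nuclear RNAs of the minor spliceosome are shown because they are the only spliceosomal members that left the floor. U1, U2 and U4 had no row and could not be compared with them. Capitals mark the Sm site, searched as AATTTTT, and the last 4 bases where they are TTTT, the usual stop signal of RNA polymerase III.
RNU11: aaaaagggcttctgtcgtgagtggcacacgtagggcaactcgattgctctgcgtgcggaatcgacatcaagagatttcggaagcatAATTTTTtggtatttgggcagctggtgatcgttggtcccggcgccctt
RNU12: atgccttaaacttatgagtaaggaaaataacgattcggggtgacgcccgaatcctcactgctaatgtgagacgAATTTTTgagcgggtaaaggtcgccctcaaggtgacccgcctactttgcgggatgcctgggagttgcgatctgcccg
RNU4ATAC: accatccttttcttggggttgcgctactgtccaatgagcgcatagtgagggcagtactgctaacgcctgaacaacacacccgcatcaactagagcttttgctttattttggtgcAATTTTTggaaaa
RNU6ATAC: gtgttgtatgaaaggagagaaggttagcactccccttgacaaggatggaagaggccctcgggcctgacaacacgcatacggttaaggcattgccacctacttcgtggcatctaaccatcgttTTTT

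The Sm letters were found once in U11, U12 and U4atac, on the RNA's own strand, and were not found in U6atac. Of 5859 GENCODE transcripts between 80 and 160 bases long, 2.61% held AATTTTT on the RNA strand and 4.78% on either strand. U6atac alone of the 4 ended in TTTT, as did 10.1% of those transcripts.

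The vault RNAs of the VTRNA1 family are shown because 2 of them left the floor, each in a different group. Capitals mark part of the A box (TAGCTCA) and of the B box (GTTCGAG), the internal promoter elements, and a final TTTT.
VTRNA1-1: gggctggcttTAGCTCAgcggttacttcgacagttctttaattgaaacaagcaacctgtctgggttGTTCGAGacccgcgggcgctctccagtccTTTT
VTRNA1-2: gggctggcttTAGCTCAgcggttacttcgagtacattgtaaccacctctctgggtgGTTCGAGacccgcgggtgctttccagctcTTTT
VTRNA1-3: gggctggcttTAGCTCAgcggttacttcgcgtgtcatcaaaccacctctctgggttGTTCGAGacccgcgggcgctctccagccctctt

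All 3 vault RNAs held both boxes once, and neither was found on the opposite strand. Among the 5859 transcripts TAGCTCA was present in 0.478% on the RNA strand (0.836% on either) and GTTCGAG in 0.273% on the RNA strand (0.444% on either). A final TTTT was present in VTRNA1-1 and VTRNA1-2 and not in VTRNA1-3. The sequences were 81.8% identical between VTRNA1-1 and VTRNA1-2, 83.0% between VTRNA1-1 and VTRNA1-3 and 87.8% between VTRNA1-2 and VTRNA1-3. Their longest shared run was 29 to 34 bases, so only a read lying wholly within such a run could not be assigned to 1 row. Whether any reads did so was not tested.

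Most members were not seen at all. Of the 56 rows, 43 were at the constant in all 6 groups: all 20 copies of U6, all 3 U5 variants (RNU5D-1, RNU5E-1 and RNU5F-1), both Y RNAs (RNY4 and RNY5), VTRNA1-2, VTRNA2-1, 15 SNAR rows and RNU86, which is a C/D box small nucleolar RNA by its current name. The other 13 rows reached 1 FPKM in at least 1 group: the 4 minor spliceosomal RNAs, VTRNA1-1, VTRNA1-3 and 7 SNAR rows. With SNAR as 1 group this is 7 of 35 RNAs. All 7 also reached 5 FPKM in some group, SNAR by the mean of its rows, and all 7 were at the floor in at least 1 other. An RNA that enters through the group where it is high has to differ from the rest, so the counts of these 7 below describe the table and support nothing beyond it.

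U11 recognises the 5′ splice site of minor introns and forms a particle with U12. RNU11 was at the floor in DMSO at 4 h (0.0982 FPKM), at 7.44 FPKM with IACS-9571 and at 134 FPKM with dTRIM24. At 24 h it was at 20.4 FPKM in DMSO, 8.13 FPKM with IACS-9571 and 11.9 FPKM with dTRIM24. Only DMSO at 4 h had no signal for this RNA. The dTRIM24 group at 4 h stood highest, and the 24 h groups lay close to one another by comparison.

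U12 pairs with the branch site of minor introns. RNU12 was at the floor in DMSO (0.0944 FPKM) and IACS-9571 (0.102 FPKM) at 4 h and at 26.4 FPKM with dTRIM24. At 24 h it was at 4.96 FPKM in DMSO, at the floor with IACS-9571 (0.0988 FPKM) and at 2.26 FPKM with dTRIM24. The 3 highest groups were in the same order as for RNU11: dTRIM24 at 4 h, DMSO at 24 h and dTRIM24 at 24 h.

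U4atac carries U6atac into the minor spliceosome as a base-paired pair and is then released. RNU4ATAC was at 19.0 FPKM with dTRIM24 at 4 h and at 8.48 FPKM with IACS-9571 at 24 h. It was at the floor in the other 4 groups, between 0.0929 FPKM and 0.104 FPKM. In GENCODE this RNA lies on the opposite strand within an intron of CLASP1 and, on its own strand, within an intron of the non-coding gene AC012447.1. CLASP1 had between 5.67 FPKM and 7.71 FPKM in the 6 groups. Whether the counting used strand is not given in the sources used here.

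U6atac replaces U11 at the 5′ splice site and helps form the catalytic core. RNU6ATAC was at 6.12 FPKM in DMSO at 4 h, at 10.3 FPKM in DMSO at 24 h and at 5.21 FPKM with dTRIM24 at 24 h. It was at the floor with IACS-9571 at 4 h (0.0994 FPKM), dTRIM24 at 4 h (0.103 FPKM) and IACS-9571 at 24 h (0.0961 FPKM). This is another order of groups than for its partner RNU4ATAC: no group had both RNAs above the floor. Per the same GENCODE table RNU11 and RNU12 overlap an exon of a long non-coding gene on their own strand and RNU6ATAC overlaps no other gene.

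VTRNA1-1 was at 24.2 FPKM with IACS-9571 at 4 h and at the floor in the other 5 groups, between 0.0921 FPKM and 0.105 FPKM. VTRNA1-3 was at 74.0 FPKM with dTRIM24 at 4 h and likewise at the floor in the other 5, between 0.0924 FPKM and 0.105 FPKM. Each vault RNA was thus seen in 1 group, under a different compound at 4 h, while VTRNA1-2 and VTRNA2-1 were seen in none.

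**Figure D1:**
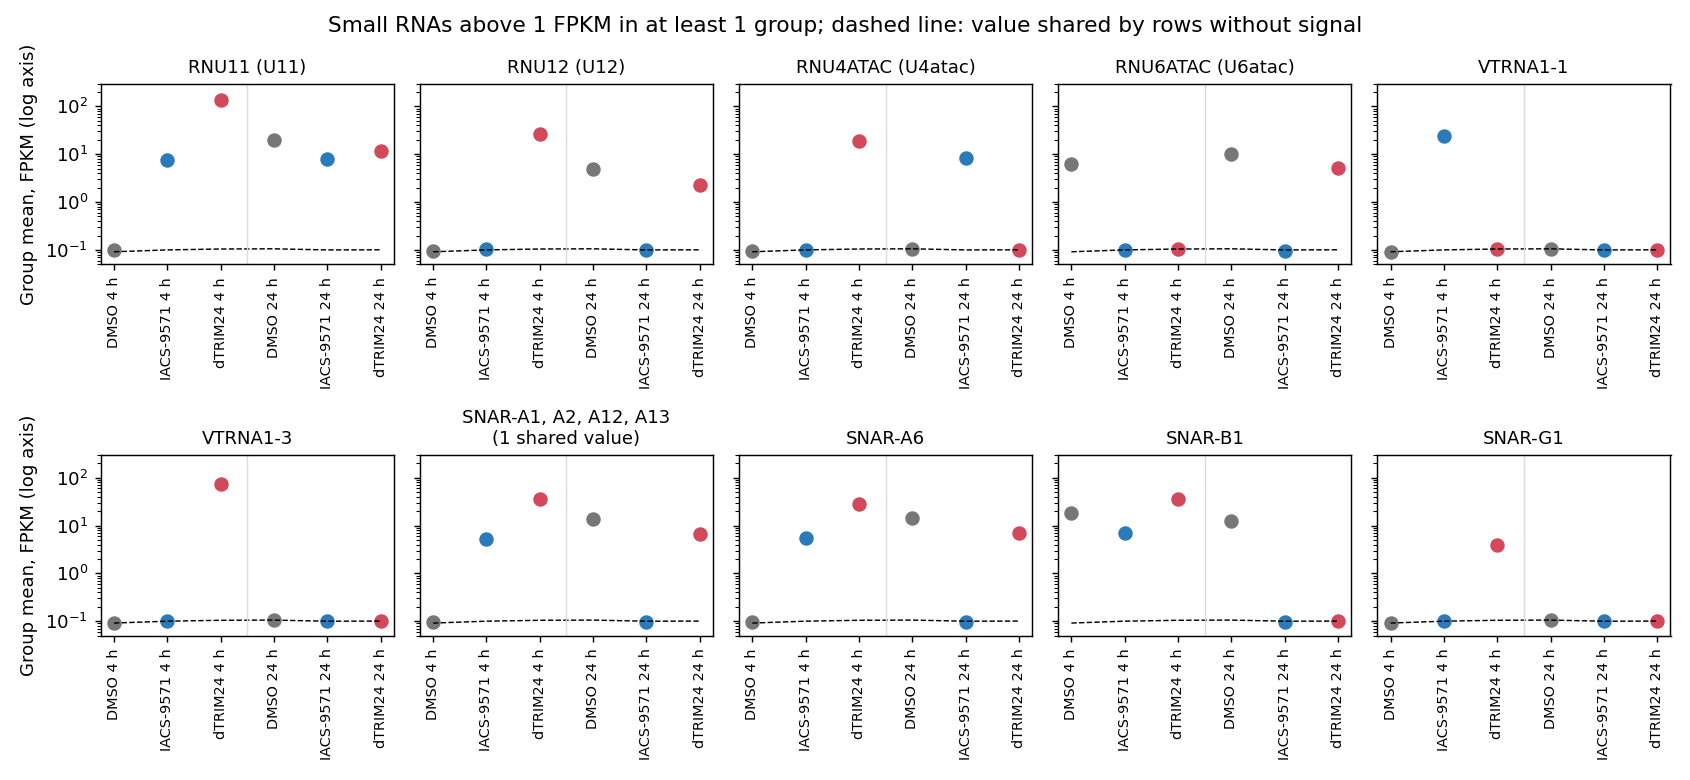
Group means in FPKM on a log axis for each small RNA row that reached 1 FPKM, 1 point per group and no replicate error, grey for DMSO, blue for IACS-9571 and red for dTRIM24; the dashed line is the constant shared by rows without signal. RNU11 spans 0.0982 FPKM to 134 FPKM, and the vault RNAs leave the line in 1 group each.

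SNAR RNAs were spread over 22 rows whose separate values are uncertain, because reads cannot be assigned to one near-identical copy. The A1, A2, A12 and A13 copies of SNAR had the same value as each other in every group: the floor in DMSO at 4 h (0.0945 FPKM), 5.27 FPKM with IACS-9571 and 35.8 FPKM with dTRIM24. At 24 h these rows were at 13.5 FPKM in DMSO, at the floor with IACS-9571 (0.0975 FPKM) and at 6.52 FPKM with dTRIM24. SNAR-A6 had the same order of groups, from the floor in DMSO at 4 h to 28.0 FPKM with dTRIM24 at 4 h.

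SNAR-B1 differed from the A copies in DMSO at 4 h, where it was at 18.4 FPKM. It was at 6.98 FPKM with IACS-9571 and 35.1 FPKM with dTRIM24 at 4 h, at 12.6 FPKM in DMSO at 24 h, and at the floor with both compounds at 24 h. SNAR-G1 was seen only with dTRIM24 at 4 h, at 3.93 FPKM. The remaining 15 rows, among them SNAR-A3, SNAR-A5, SNAR-A8, SNAR-A9 and SNAR-A14, were at the constant throughout.

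As 1 group, SNAR had a mean over rows of 0.926 FPKM in DMSO, 1.60 FPKM with IACS-9571 and 9.63 FPKM with dTRIM24 at 4 h. In DMSO at 4 h this mean rested on SNAR-B1 alone, since all other SNAR rows were at the floor. At 24 h the mean was 3.75 FPKM in DMSO, at the floor with IACS-9571 (0.0991 FPKM) and 1.57 FPKM with dTRIM24. The number of SNAR rows at or above 1 FPKM was 1, 6 and 7 at 4 h and 6, 0 and 5 at 24 h, in the same order of groups. IACS-9571 at 24 h was the 1 group without any SNAR signal.

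In the comparisons between groups, values were subtracted as log2(FPKM + 1), a scale that compresses the change of low RNAs, and a difference of at least 1 in size is called past 2-fold. Where 1 of the groups is at the floor, the size of the difference is set by the pseudocount and is neither a ratio nor a bound. For RNU12 with dTRIM24 against DMSO at 4 h it is 4.65 with a pseudocount of 1 and 7.09 with 0.1. The text therefore gives sizes only between groups above the floor. Those of SNAR are of a mean over rows, some of which were at the floor.

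Against DMSO at 4 h, IACS-9571 had 2 of the 7 RNAs higher past 2-fold, RNU11 and VTRNA1-1, and 1 lower, RNU6ATAC, each with the lower group at the floor. Over the 11283 rows without spike-ins that reached 1 FPKM, 0.709% were higher and 0.390% lower. Over the 160 such rows of small nucleolar and Cajal body RNAs (names SNORD, SNORA and SCARNA), which also lack a tail, 23.1% were higher and 16.9% lower. With 7 RNAs, 2 and 1 are close to the shares among those other small RNAs.

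With dTRIM24 at 4 h 5 of the 7 were higher than DMSO past 2-fold: RNU11, VTRNA1-3, RNU12 and RNU4ATAC, all at the floor in DMSO, and SNAR, by 2.46 (3.24 with a pseudocount of 0.1). The SNAR size mixes rows at the floor in DMSO with SNAR-B1 (35.1 FPKM against 18.4 FPKM), which alone did not pass 2-fold. RNU6ATAC was lower, at the floor with dTRIM24, and VTRNA1-1 was at the floor in both groups. Of all kept rows 1.62% were higher and 0.319% lower, and of the other small RNAs 60.0% and 10.0%. The members' share again lies near that of the other small RNAs and is no sign of anything particular to them. RMRP and RPPH1, RNA polymerase III transcripts outside the naming rule, also stood highest in this group, at 1196 FPKM and 493 FPKM against 12.7 FPKM and 2.01 FPKM in DMSO.

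Compared with IACS-9571, dTRIM24 at 4 h had the same 5 RNAs higher past 2-fold: RNU11 by 4.00 and SNAR by 2.03, and VTRNA1-3, RNU12 and RNU4ATAC from the floor. VTRNA1-1 was lower, at the floor with dTRIM24, and RNU6ATAC was at the floor in both. The shares were 1.47% higher and 0.337% lower over all kept rows and 55.0% and 10.0% over the other small RNAs. The compounds differ by the VHL part of dTRIM24, and without doses or replicate values the difference between them could not be tested. The 4 h comparisons are not independent, since each pair of them shares 1 group mean.

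At 24 h IACS-9571 had 4 of the 7 lower than DMSO past 2-fold: RNU6ATAC, RNU12 and SNAR, which were at the floor with IACS-9571, and RNU11 (-1.23). RNU4ATAC was higher, from the floor in DMSO, and both vault RNAs were at the floor. Over all kept rows 0.736% were lower and 0.399% higher, and over the other small RNAs 27.5% and 16.9%.

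For dTRIM24 at 24 h 0 of the 7 were past 2-fold from DMSO in either direction, against 0.753% higher and 0.479% lower over all kept rows and 31.9% and 20.0% over the other small RNAs. RNU11 (-0.73), RNU12 (-0.87), RNU6ATAC (-0.86) and SNAR (-0.88) all had values below DMSO and within 2-fold. The SNAR size mixes unlike rows. SNAR-B1 was at 12.6 FPKM in DMSO and at the floor with dTRIM24, past 2-fold, while SNAR-A1 had 6.52 FPKM against 13.5 FPKM. In this comparison the median log2(FPKM + 1) of the remaining kept genes (names of no small RNA class, microRNA or spike-in) was 0.29 higher than in DMSO. Taken relative to that median, these 4 RNAs were past 2-fold lower, and with a pseudocount of 0.1 in place of 1 RNU12 and SNAR were. The count of 0 thus rests on the scale.

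Compared with IACS-9571, dTRIM24 at 24 h had RNU6ATAC, RNU12 and SNAR higher past 2-fold, all at the floor with IACS-9571, and RNU4ATAC lower, at the floor with dTRIM24. RNU11 stood within 2-fold (0.50). The shares were 0.877% higher and 0.266% lower over all kept rows and 35.0% and 11.2% over the other small RNAs. The median log2(FPKM + 1) of the remaining genes was 0.30 higher here, and relative to it SNAR was no longer past 2-fold (0.93), which leaves 2 RNAs higher.

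The solvent controls of the 2 times differed as well. From 4 h to 24 h in DMSO, RNU11 and RNU12 were higher past 2-fold, both from the floor, and SNAR was higher by 1.30 (1.91 with a pseudocount of 0.1). The SNAR size mixes opposite moves. SNAR-B1, its only row above the floor at 4 h, was lower at 24 h (12.6 FPKM against 18.4 FPKM), while its A copies seen at 24 h came from the floor. None of the 7 was lower past 2-fold, and RNU6ATAC stood within 2-fold (0.66). Of all kept rows 0.780% were higher and 0.372% lower, and of the other small RNAs 32.5% and 15.0%. The DMSO means alone thus differed past 2-fold in 3 of the 7 RNAs. Over all 35 RNAs the median difference lay between -0.01 and 0.02 in the 7 comparisons, since most rows were at the constant.

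**Figure D2:**
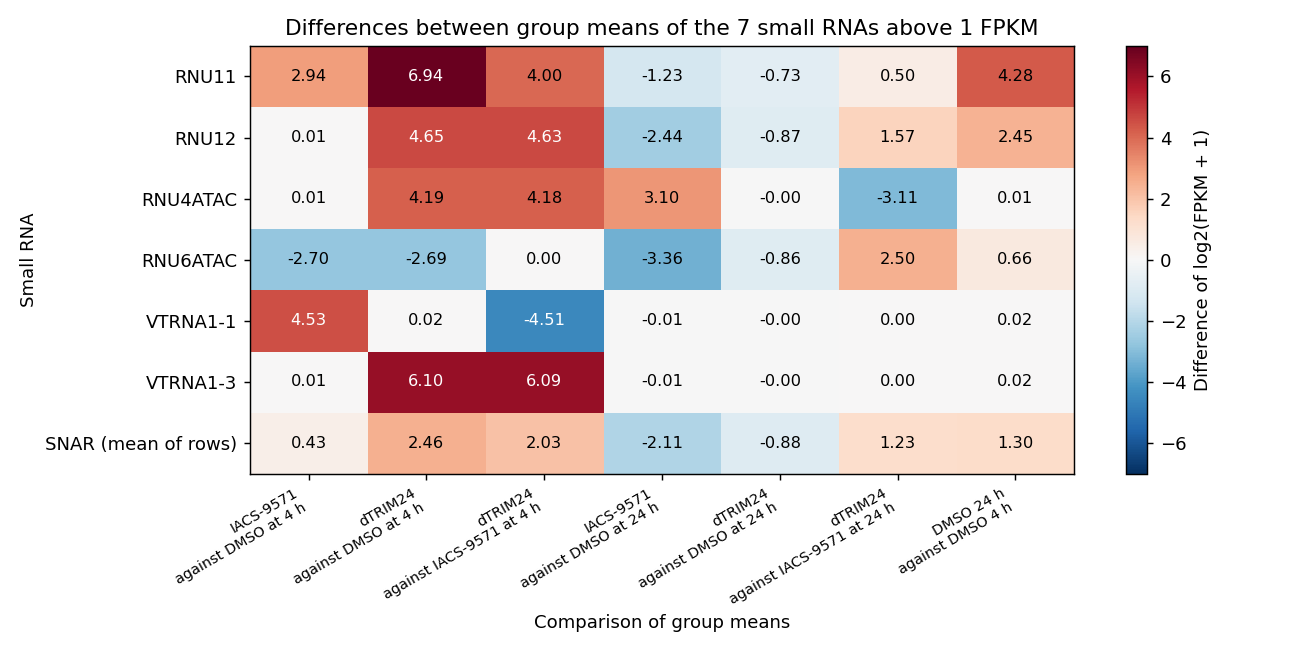
Differences of log2(FPKM + 1) between 2 group means for the 7 small RNAs that reached 1 FPKM (rows) in 7 comparisons (columns), red higher and blue lower, with no replicate error. Differences near 0 in the vault RNAs are between groups at the floor; RNU11 with dTRIM24 against DMSO at 4 h is the largest value, 6.94, which becomes 9.40 with a pseudocount of 0.1 because DMSO is at the floor.

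The other small RNAs show how often a row left the floor. At or above 1 FPKM at 4 h were 1 of the 35 members in DMSO, 3 with IACS-9571 and 5 with dTRIM24. At 24 h the numbers were 4, 2 and 4. DMSO at 4 h is the group with the fewest, and in it the 1 member was RNU6ATAC. SNAR-B1 was at 18.4 FPKM in that group, but the mean of the SNAR rows (0.926 FPKM) was under 1 FPKM.

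C/D box RNAs, which guide methylation of other RNAs, went from 27 of 256 in DMSO to 30 with IACS-9571 and 46 with dTRIM24 at 4 h. H/ACA RNAs, which guide pseudouridine formation, went from 57 of 105 to 61 and 71, and Cajal body RNAs from 1 of 24 to 5 and 14. In all 4 sets the most rows at 4 h were seen with dTRIM24. At 24 h this was not so: in DMSO, IACS-9571 and dTRIM24 the numbers were 36, 33 and 43 for C/D box, 60, 51 and 59 for H/ACA and 7, 5 and 4 for Cajal body RNAs. At 4 h the 21881 remaining genes had 49.0%, 49.3% and 49.2% of rows at or above 1 FPKM in these 3 groups.

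Switching between the floor and a clear level was common in these small RNA classes. All 7 members that reached 5 FPKM were at the floor in some other group. The same held for 46 of 60 C/D box, 36 of 72 H/ACA and 9 of 10 Cajal body RNAs. Of 8346 remaining genes, which were set apart by name and not by length, it held for 5, chosen here after their values were seen: HIST1H2BG, HIST1H2BM, HIST1H4D and HIST1H4E, which are replication-dependent histone genes, and RNA5SP244, a ribosomal RNA pseudogene. It held for 0 of 27 ERCC spike-ins, control RNAs added in known amounts. What part the library preparation, the length of the RNAs or the number of fragments behind them has in this was not tested.

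The spike-ins also give a scale for the size of differences. For 25 of them with at least 5 FPKM in each group the SD of the differences was between 0.11 and 0.22 in the 7 comparisons. Of 46 spike-ins that reached 1 FPKM, 1 (ERCC-00077) was past 2-fold, in the comparisons of dTRIM24 with DMSO and with IACS-9571 at 24 h. This spread is of tailed control RNAs and is no replicate error of the members.

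**Figure D3:**
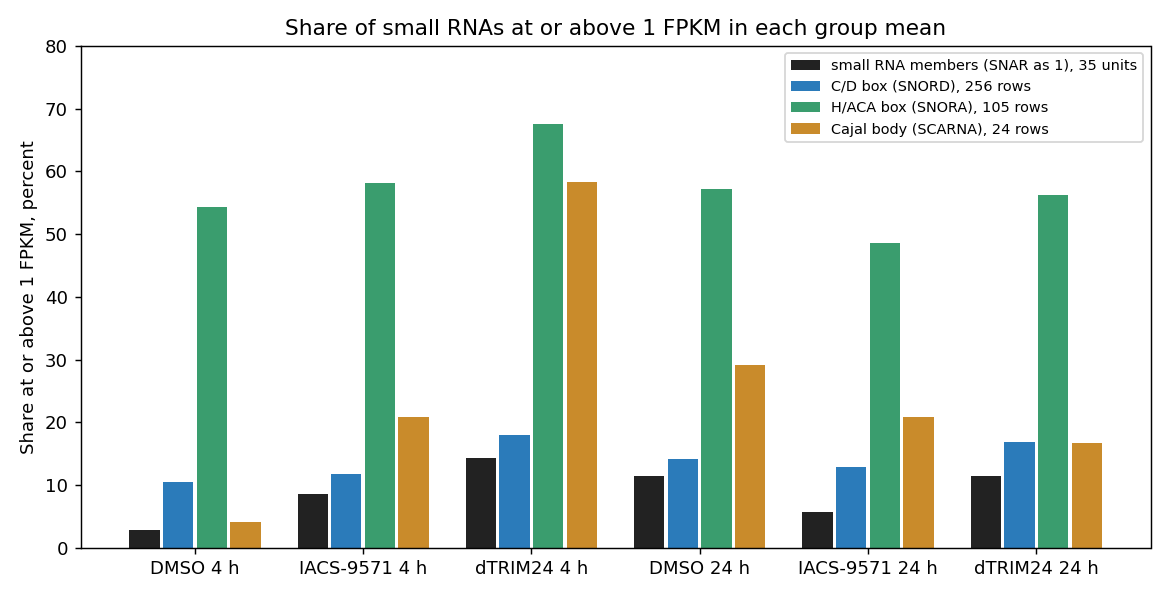
Share in percent of small RNAs at or above 1 FPKM in each group mean (bars from 0, no replicate error): the 35 members with SNAR as 1, and the C/D box, H/ACA and Cajal body RNAs. In all 4 sets the tallest bar of the 4 h groups is dTRIM24, with 5 of the 35 members.

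The mRNAs of proteins that make, bind or trim these RNAs stayed within 2-fold on the scale of log2(FPKM + 1). Protein was not measured. The 9 lists held 134 genes, of which 133 reached 1 FPKM, and 0 of the 133 were past 2-fold in any of the 7 comparisons. The largest differences were 0.73 and -0.63. With dTRIM24 at 4 h against DMSO the list medians lay between -0.07 (subunits of RNA polymerase III) and 0.06 (7SK particle and P-TEFb), beside -0.01 over all kept rows. For IACS-9571 at 4 h they lay between -0.03 and 0.07, beside 0.00.

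Among the 18 subunits of RNA polymerase III, POLR3G, the alternative to POLR3GL in the enzyme, had 13.4 FPKM with dTRIM24 at 4 h against 10.99 FPKM in DMSO (0.26). POLR2E, a subunit shared by all 3 nuclear polymerases, had 53.6 FPKM against 67.6 FPKM (-0.33). Of the 19 transcription factors, MAF1, the repressor of RNA polymerase III, differed by -0.28 and SNAPC2, of the complex that starts snRNA genes, by -0.34. In Integrator, which cuts the 3′ ends of snRNA precursors, INTS1 differed by -0.28 and CPSF3L, its endonuclease, by -0.23. None of these approached 2-fold.

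The mRNAs of proteins that bind the members also stayed within 2-fold. SSB, the La protein that holds the 3′ ends of new polymerase III transcripts, had 200.0 FPKM with dTRIM24 at 4 h against 164.8 FPKM in DMSO (0.28). MVP, the major vault protein, had 10.6 FPKM against 13.1 FPKM (-0.28), while VTRNA1-3 went from the floor to 74.0 FPKM.

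The mRNAs of 5 proteins particular to the minor spliceosome, part of the Sm and snRNP list, were above the floor in each group. SNRNP25 had between 53.7 FPKM and 75.2 FPKM in the 6 groups, SNRNP35 between 19.6 FPKM and 24.7 FPKM, and SNRNP48 between 9.22 FPKM and 12.4 FPKM. RNPC3, which bridges U11 and U12, had between 6.19 FPKM and 8.38 FPKM, and ZCRB1 between 23.4 FPKM and 27.7 FPKM. In the SMN complex, which loads the Sm ring, SMN1 had 97.3 FPKM with dTRIM24 at 4 h against 78.0 FPKM in DMSO (0.31). SMN1 has the near-identical copy SMN2 and is uncertain. EXOSC4, an exosome subunit, had the largest difference of the trimming and decay list in this comparison, -0.40.

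At 24 h the lists moved with all genes. With dTRIM24 against DMSO their medians lay between 0.19 (signal recognition particle) and 0.35 (7SK particle and P-TEFb), beside 0.25 over all kept rows. SNAPC4, of the snRNA-activating complex, had the largest difference, 4.18 FPKM against 2.11 FPKM (0.73). In DMSO from 4 h to 24 h the medians lay between -0.27 and -0.16, beside -0.22 over all kept rows. The 24 h DMSO mean had RNU11, RNU12 and SNAR above their 4 h level while all 9 medians of the protein gene lists were below 0.

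**Figure D4:**
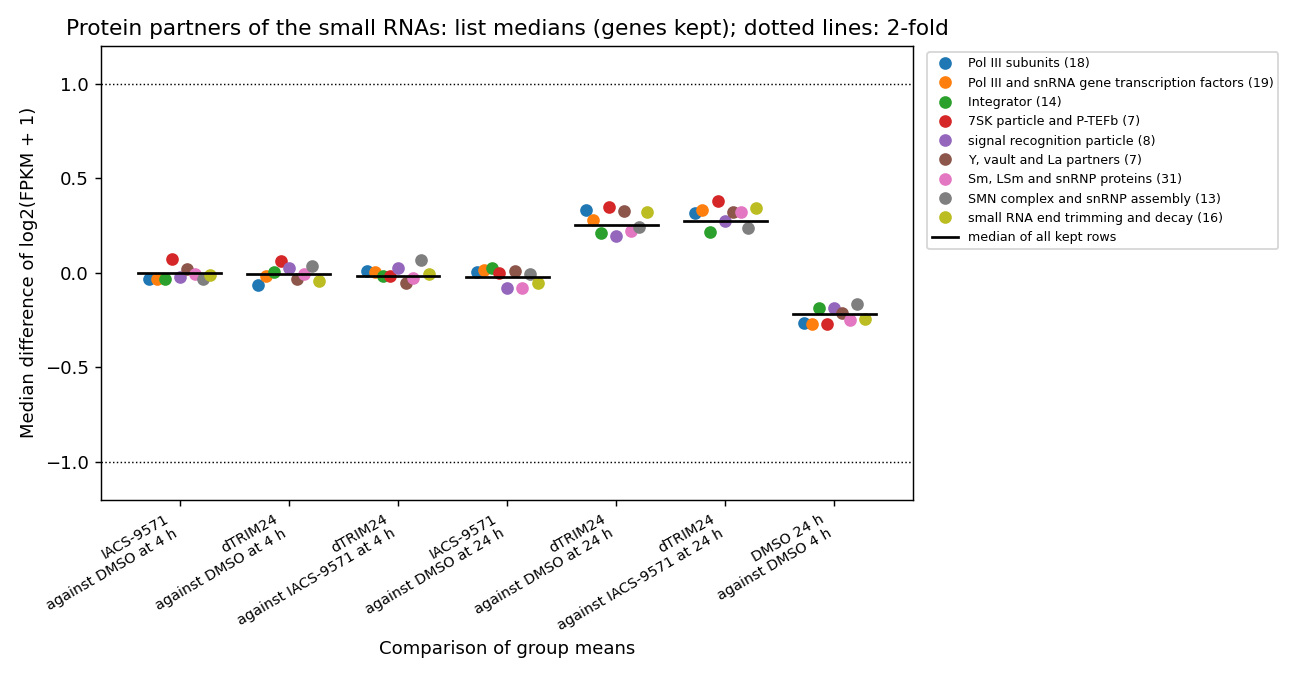
Median difference of log2(FPKM + 1) between 2 group means for 9 lists of protein partners (points, number of genes in the key) in 7 comparisons, with the median over all kept rows as a black bar and dotted lines at 2-fold. All list medians lie between -0.27 and 0.38, close to the black bars, and 0 of 133 genes passed 2-fold on this scale.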

How the data were processed

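The labels name 18 RNA samples in 6 groups of 3. The deposited FPKM values came from the authors' use of TopHat2 and Cuffnorm (build hg19), as the submitters' processing notes list. The sources used here do not name their versions, the annotation, the RNA selection or the use of strand. Cell number was equalised and ERCC spike-ins were added, per the labels' protocols. The table has 1 mean per group, so limma, leaving out replicates and pairing could not be run, and no depth is known.

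Rows reaching 1 FPKM in some group were kept. Differences were of log2(FPKM + 1) with a threshold of 1, computed in Python 3.11.15 with numpy 2.4.6 and pandas 2.3.3; calling was tested on simulated data. FPKM of RNAs shorter than a sequenced fragment depend strongly on the length correction. Motifs and alignments (Biopython 1.88) used GENCODE release 29 transcripts. Named RNAs were those reaching 5 FPKM in a group, with SNAR by its mean and its rows; of the protein lists, up to 2 genes of largest difference per list. RMRP, RPPH1, CLASP1 and the minor spliceosome proteins were named for their roles or after their values were seen. The members and lists were chosen with earlier results of these data known.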

Additional observations from a re-analysis of the deposited data

How the results depend on the processing

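All 7 RNAs reached 5 FPKM and the other 28 were at the constant throughout. A floor of 5 FPKM and no filter on low values therefore could not change a count. Spike-in scales of the groups compared differed by at most 0.04 in log2, so rescaling to them could move little. These settings left all 14 counts of members (7 comparisons, higher and lower) within 1.5 times of those reported. Median centring and a pseudocount of 0.1 each moved 1 of the 14 by more: members lower with dTRIM24 against DMSO at 24 h went from 0 to 4 with median centring (the median of the remaining genes differs by 0.29 there) and to 2 with a pseudocount of 0.1. Median centring also took members higher with dTRIM24 against IACS-9571 at 24 h from 3 to 2, with SNAR lost at 0.93. The sizes of differences against a group at the floor grew with a pseudocount of 0.1, for RNU6ATAC with IACS-9571 against DMSO at 24 h from -3.36 to -5.72. Counting SNAR rows one by one moved 8, since 1 unit became up to 7 rows: higher with IACS-9571 against DMSO at 4 h 7 (lower 2), higher with dTRIM24 at 4 h 10 against DMSO and 11 against IACS-9571, lower with IACS-9571 at 24 h 9, lower with dTRIM24 against DMSO at 24 h 1 (SNAR-B1), higher with dTRIM24 against IACS-9571 at 24 h 7, and higher in DMSO from 4 h to 24 h 7. Differences past 2-fold of the 7 RNAs could not change sign under these settings, so their signs are no check. A pseudocount keeps the sign, and the shifts were at most 0.30 with median centring and 0.04 with the spike-ins. No paired analysis was possible because the table holds group means, and leaving out replicates could not be run for the same reason. Depth is unknown, so an RNA at the floor may be present below what these libraries could show.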
